A study of Danio rerio with 4 samples.

Results

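Strong regions with a single summit were studied in a genome-wide map of Gfi1aa, made by chromatin immunoprecipitation from intact zebrafish embryos collected 15 hours post fertilisation (hpf). A region is a stretch that the authors' peak caller marked as enriched, and a summit is the single base at which the enrichment in it peaks. Members were selected on the deposited score and the number of summits, as the regions on chromosomes 1 to 25 with exactly 1 summit and a score of 50 or more. The score is a −log10 value, probably of a q-value and possibly of an uncorrected p-value, so a higher score means stronger evidence of enrichment. There were 3660 such regions among 111166 in the whole list and 109722 on the chromosomes. They made up 3.34% of the chromosomal regions, 4.63% of the 78991 with 1 summit, and 40.3% of the 9073 that scored 50 or more.

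The study sequenced 2 libraries made with an antibody against GFP and 2 input libraries made with no antibody, all from whole embryos of the same stage. The labels name no genotype and no GFP construct, so the form in which Gfi1aa carried GFP is not known from them. They also do not say whether the libraries came from separate clutches. A GFP antibody library from embryos without GFP is not among the samples, so background of the antibody and binding of Gfi1aa cannot be told apart. All values come from 1 deposited list on the GRCz11 assembly with 1 score per summit and no value per library. The members therefore have no replicate error, no input value beside them and no known read depth. Spreads below are spreads between chromosomes, which share the same libraries.

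Gfi1 proteins are zinc finger repressors that steer blood progenitors towards their fates. They bind DNA through their zinc fingers and recruit the histone demethylase Lsd1 through a short motif at the amino terminus. Lsd1 removes methyl marks that accompany active enhancers and promoters. The study's title links Gfi1aa and Lsd1 to cebpa, a transcription factor gene of myeloid cells, in neutrophil development. Regions with 1 summit are often taken as point-like sites. The list gives no widths, so whether the members were sharp was not measured, and they are called strong single-summit regions here. Neither the GRCz11 sequence nor its gene annotation was used, so members are given by position, without genes, motifs or sequence.

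The scores that chose the members fell off steeply above the minimum. The median member scored 72.5, with quartiles of 58.4 and 100.9, and 1942 members (53.1%) scored under 75. Only 941 reached 100, 153 reached 200, 9 reached 500 and 4 reached 1000. Regions of 2 to 4 summits whose strongest summit reached 50, of which there were 4307, had a median of 78.7 with quartiles of 61.3 and 115. A further 1106 regions of that strength held 5 or more summits. The share of regions with a single summit fell with every step in score, from 96.2% of regions scoring under 2 to 52.4% between 30 and 50, 45.3% between 50 and 75, and 30.8% at 200 or more. These values describe the rule and are no test of it.

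**Figure D1:**
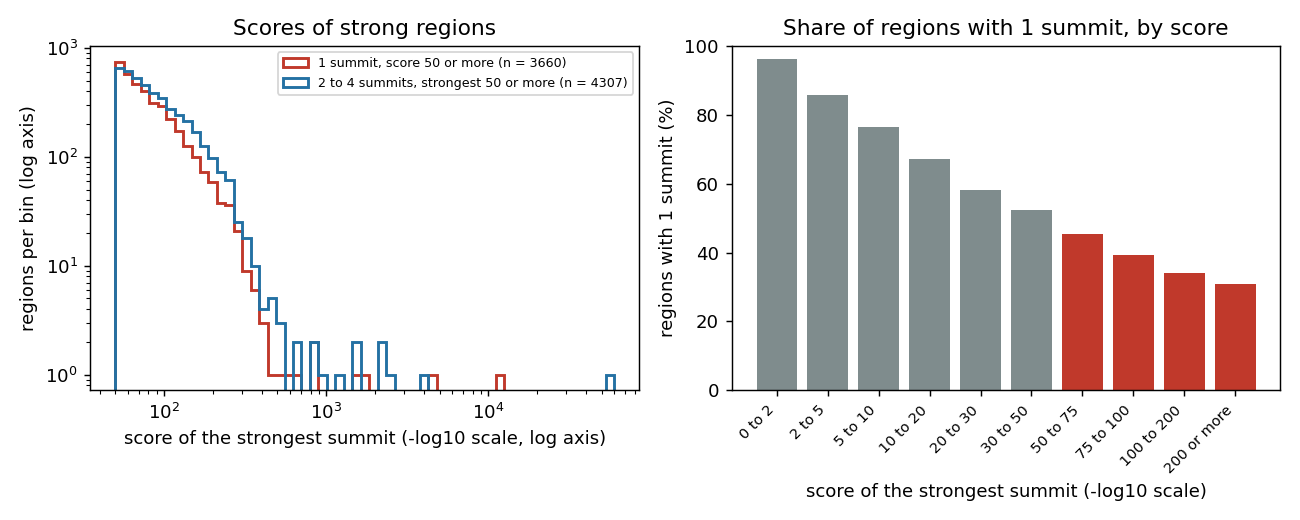
Left, number of regions per bin against the score of the strongest summit (a −log10 value, both axes logarithmic), for the 3660 strong single-summit regions and the 4307 strong regions of 2 to 4 summits. Right, percent of all chromosomal regions with 1 summit in each band of score, with bands of 50 or more in red; it falls from 96.2% to 30.8%.

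No break in score separated members from the regions left out. Just inside, 3 members shared a score of 50.01, on chromosome 5 at position 20393407, chromosome 12 at 45715010 and chromosome 21 at 28927254. The next 2 inside also rounded to 50.01, on chromosome 11 at 4953515 and chromosome 16 at 328902. Just outside, single-summit regions scored 49.96 on chromosome 12 at 14364923 and on chromosome 15 at 14599626. Next came 49.93 on chromosome 6 at 26957266 and on chromosome 5 at 8027, and 49.92 on chromosome 7 at 43809993.

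Most of the 10 highest-scoring members had a strong nearest region, but this did not hold for strong members in general. Of the 153 members scoring 200 or more, 20.9% had a strong nearest region. No region within 10 kb was found for 19.6% of them, against 12.5% of members scoring 50 to 75. The highest score, 12034, stood on chromosome 2 at position 10776587, and the second highest, 4376, lay 3.03 kb from it at 10779613, so the top pair were each other's nearest region. The third, on chromosome 16 at 15658491 (1663), had its nearest region 1.45 kb away, a region of 4 summits that scored 794. Chromosome 24 supplied 3 of the top 10 within 5.95 kb, at 12410374 (457), 12411493 (857) and 12416325 (1587). The eighth, on chromosome 11 at 15122992 (569), lay 2.80 kb from a member scoring 185.

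The other 3 of the top 10 had a weak nearest region. On chromosome 4 at 42877104 a member scored 877 and its nearest region, 2.15 kb away, scored 2.12. On chromosome 15 at 11488375 a member scored 692, and its nearest region was 27.3 kb away with a score of 4.31. On chromosome 3 at 11049737 a member scored 549, and its nearest region was 16.6 kb away with a score of 17.7. Strong members thus occurred both inside stretches of high scores and by themselves. Sequence shared with a GFP construct was not analysed at any of them.

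Members occurred on all 25 chromosomes at a fairly even density. Their number ranged from 106 on chromosome 24 to 216 on chromosome 5. Per Mb between the first and the last summit of a chromosome there were 2.74 ± 0.296 members (SD, n = 25 chromosomes), from 2.24 on chromosome 14 to 3.51 on chromosome 23. The coefficient of variation was 10.8%, against 15.2% for strong regions of 2 to 4 summits (3.22 ± 0.491 per Mb) and 7.03% for single-summit regions under 50 (56.3 ± 3.96 per Mb). The numbers of regions behind these densities differed, so the coefficients do not rank the classes by evenness. Across the 25 chromosomes the density of members went with that of strong regions of 2 to 4 summits (Pearson's r = 0.527, Spearman's rho = 0.439). With that of single-summit regions under 50 the values were 0.431 and 0.292. All these densities come from the same libraries and are divided by the same span. Without chromosome 4 the r and rho were 0.446 and 0.377 for strong regions of 2 to 4 summits. For single-summit regions under 50 they were 0.311 and 0.204. The median member score differed little between chromosomes, from 67.7 on chromosome 1 to 78.2 on chromosome 23.

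Chromosome 4 held few regions for its span, and a high share of its strong regions had a single summit. It had 2.29 members per Mb, below the mean of the other 24 chromosomes (2.76 ± 0.286, SD) and above chromosome 14 alone. As a share of all its regions, members made up 3.78%, above the mean of the others (3.34% ± 0.312, SD). Strong regions of 2 to 4 summits were sparser there than on every other chromosome, at 1.92 per Mb against 2.39 to 4.15. So were single-summit regions under 50, at 41.4 per Mb against 51.3 to 62.0. Of its strong regions with 1 to 4 summits, 54.4% had a single summit, the highest share of the 25 chromosomes (45.8% ± 3.13 on the others, SD, range 40.7% to 52.2%). Each chromosome gives 1 value, so this order was not tested.

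The members of chromosome 4 differed between its stretches, split at 30 Mb as in earlier results of these data. Up to 30 Mb there were 101 members, or 3.37 per Mb, and 2.91% of the regions were members. Beyond 30 Mb there were 78 members, or 1.62 per Mb, and 6.18% of the regions were members. Single-summit regions under 50 fell off more, from 79.4 to 17.6 per Mb, and strong regions of 2 to 4 summits from 3.64 to 0.854 per Mb. Of strong regions with 1 to 4 summits, 48.1% had a single summit up to 30 Mb, within the range of the other chromosomes. Beyond 30 Mb the share was 65.5%, so the high share of chromosome 4 came from that stretch. Members beyond 30 Mb had a median distance of 9.80 kb to the nearest other region, against 2.46 kb up to 30 Mb, and 37 of the 78 (47.4%) had none within 10 kb, against 4 of 101. The median distance also rose for single-summit regions under 50, from 2.58 kb up to 30 Mb to 6.13 kb beyond. The median score of members beyond 30 Mb was 71.3, against 72.0 up to 30 Mb.

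**Figure D2:**
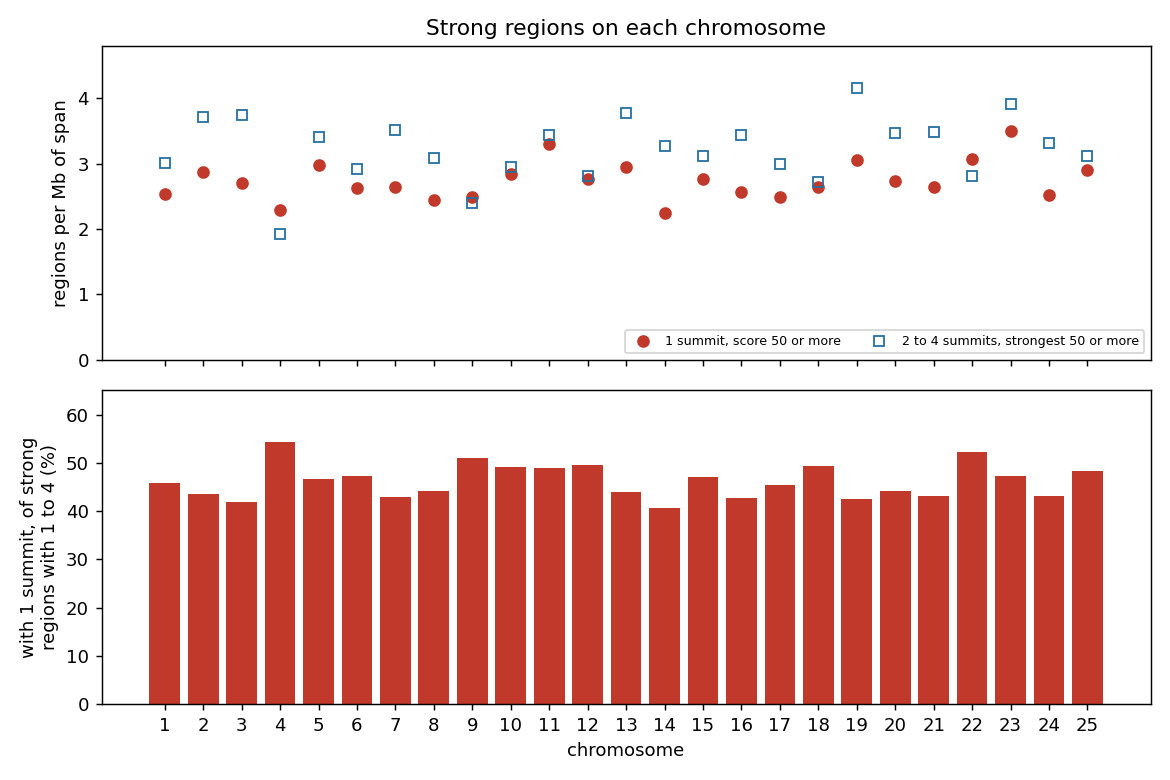
Top, strong single-summit regions (filled circles) and strong regions of 2 to 4 summits (open squares) per Mb between the first and last summit of each chromosome. Bottom, percent of strong regions with 1 to 4 summits that had 1 summit; chromosome 4 has the highest share, 54.4%, and chromosome 14 the lowest, 40.7%.

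At 1 Mb, members were spread unevenly but widely. In 1336 full windows of 1 Mb there were 2.71 members on average, with a median of 2 and a maximum of 12, and 167 windows (12.5%) held none. The variance was 1.65 times the mean, against 1.91 times for strong regions of 2 to 4 summits (mean 3.18). For single-summit regions under 50 it was 7.07 times (mean 56.0). The mean counts differed, so these ratios do not rank the classes by evenness. All 257 windows of 5 Mb held at least 1 member. Neighbouring members were a median of 202 kb apart, with quartiles of 65.2 and 505 kb. The longest stretch without a member was 4.18 Mb on chromosome 4, from position 67598140 to 71780275.

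Chromosome ends were compared next, since position was not used to choose the members. Outer stretches were counted from the first and the last summit of each chromosome, not from the ends of its sequence. The outer 500 kb of chromosomes held 86 members (2.35%), against 147 strong regions of 2 to 4 summits (3.41%). The share was lower for members on 20 of 25 chromosomes (exact sign test over chromosomes, two-sided, p = 0.00408, Benjamini-Hochberg adjusted p = 0.00951 over 28 tests). By the same exact sign test it did not pass at a minimum score of 75 (adjusted p = 0.279) or 100 (adjusted p = 0.586), nor in the outer 1 Mb (adjusted p = 0.279). In the outer 250 kb the gap was wider, at 0.874% of members against 1.95% (lower on 23 of 25 chromosomes, exact sign test, adjusted p = 7.77e-05). Single-summit regions under 50 had 2.205% in the outer 500 kb, and members were higher on 12 and lower on 13 chromosomes (p = 1, exact sign test).

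By median distance, members did not lie farther from the nearest other region than single-summit regions under 50. The median distance from a member to the nearest other region, measured between strongest summits, was 2.97 kb, with quartiles of 1.96 and 6.02 kb. By chromosome it ranged from 2.55 to 3.76 kb. For single-summit regions under 50 the median was 3.17 kb (quartiles 1.83 and 6.77 kb, by chromosome 2.91 to 3.48 kb). Members had the shorter median on 17 of 25 chromosomes (exact sign test, two-sided, p = 0.108, adjusted p = 0.144), which did not pass the threshold of 0.05. It did pass with neighbours scoring 5 or more only (exact sign test, adjusted p = 5.48e-04), again with members nearer to their neighbour.

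Very short distances were rarer for members than for weak single-summit regions. Only 55 members (1.503%) had another region within 1 kb, against 5.89% of single-summit regions under 50, and the share was lower on 25 of 25 chromosomes (exact sign test, two-sided, p = 5.96e-08, the smallest that 25 chromosomes can give, adjusted p = 4.17e-07). Region widths are not in the list, so the part that wider regions play in this shortage was not tested. Measured the same way, 0.604% of strong regions of 2 to 4 summits had another region within 1 kb. Between strongest summits, a low share was therefore not particular to members. Between the outermost summits of the regions the share was lowest for members, at 2.16%. It was 5.06% for strong regions of 2 to 4 summits and 7.28% for single-summit regions under 50. Against weak single-summit regions, long distances gave a less stable difference. Having no region within 10 kb did not differ past the threshold (13.8% of members against 15.8%, lower on 18 of 25 chromosomes, exact sign test, adjusted p = 0.0673), though it did without chromosome 4 (adjusted p = 0.0396). In all, 161 members (4.40%) had no region within 20 kb, against 5.32%, lower on 19 of 25 chromosomes (exact sign test, p = 0.0146, adjusted p = 0.0273). The 20 kb difference did not pass at a minimum score of 75 (4.95% against 5.29%, exact sign test, adjusted p = 0.475) or 100 (5.31% against 5.28%, adjusted p = 1).

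Against strong regions of 2 to 4 summits, the answer depended on where a region is placed. Between strongest summits, members lay nearer to their neighbour, with medians of 2.97 against 3.22 kb (shorter on 19 of 25 chromosomes, exact sign test, two-sided, adjusted p = 0.0273). Between the outermost summits of the regions, members lay farther away, with medians of 2.79 against 2.32 kb (longer on 24 of 25 chromosomes, exact sign test, adjusted p = 8.68e-06). The distance between strongest summits includes, in both regions, any stretch from the strongest summit to the outer summit facing the other region. A member has no such stretch itself, but its neighbour may have one. A region within 2 kb was found for 25.96% of members against 16.5% by strongest summits, and for 30.8% against 41.3% by outermost summits. Within 1 kb the shares by strongest summits were 1.503% against 0.604% (higher on 18 of 25 chromosomes, exact sign test, adjusted p = 0.0673). By outermost summits they were 2.16% against 5.06%. Having no region within 10 kb was more frequent among members, at 13.8% against 10.9% (higher on 19 of 25 chromosomes, exact sign test, adjusted p = 0.0273). At a minimum score of 100 the shares were 15.8% against 11.8%, and the difference did not pass (higher on 17 of 25 chromosomes, exact sign test, adjusted p = 0.144). For no region within 20 kb the shares were 4.40% against 3.25%. This did not pass (higher on 16 of 25 chromosomes, exact sign test, adjusted p = 0.279). Between outermost summits it did, at 4.29% against 2.97% (higher on 20 of 25, exact sign test, adjusted p = 0.00878).

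**Figure D3:**
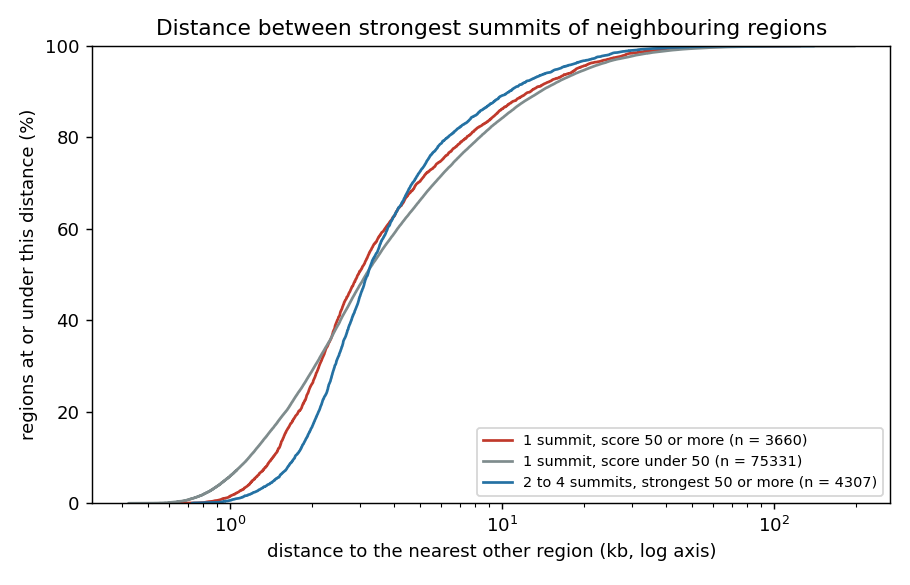
Cumulative percent of regions against the distance to the nearest other region (kb, logarithmic axis), between strongest summits, for members, single-summit regions under 50 and strong regions of 2 to 4 summits. The member curve starts later than that of weak single-summit regions (1.503% against 5.89% at 1 kb) and has nearly the same median, 2.97 against 3.17 kb.

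A minority of members stood far from any other region. The most distant was on chromosome 4 at position 60729504 (score 72.5), with 124 kb to the nearest region. It was followed by members on chromosome 20 at 50753220 (84.2, 100.2 kb), chromosome 4 at 37085891 (96.9, 97.3 kb), chromosome 12 at 47295078 (85.7, 84.8 kb) and chromosome 4 at 29967078 (55.2, 81.9 kb). None of these 5 scored 100 or more, a score that 941 of the 3660 members reached. In all, 15 of the 3660 members had no region within 50 kb. The same held for 451 of the 75331 single-summit regions under 50 and for 9 of the 4307 strong regions of 2 to 4 summits.

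The nearest region of a member was usually weak, but more often strong than that of a weak region. It had a median score of 8.97 (quartiles 4.20 and 23.9), and for 1100 members (30.1%) it scored under 5. Such scores were about as common in the whole list. Of the 109722 chromosomal regions, 6239 scored under 2 and a further 28711 scored from 2 to under 5. Single-summit regions under 50 had nearest regions with a median of 7.82 (quartiles 4.03 and 17.7). Members had the higher median on 20 chromosomes, the lower on 3, and 2 were tied (exact sign test, two-sided, p = 4.88e-04, adjusted p = 0.00171). The difference did not pass at a minimum score of 100 (exact sign test, adjusted p = 0.0673) or for neighbours farther than 5 kb (adjusted p = 0.279), at ratios of 1.15 and 1.20.

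The nearest region scored 50 or more for 424 members (11.6%), where 8.27% of all chromosomal regions score that high. Among single-summit regions under 50 the share was 7.17%. The share was higher for members on 25 of 25 chromosomes (exact sign test, two-sided, p = 5.96e-08, adjusted p = 4.17e-07). This measure was added after the list was opened. By chromosome it ran from 6.78% to 18.9% for members and from 5.73% to 8.31% for weak single-summit regions. At a minimum score of 100, applied to members and neighbours alike, the shares were 5.31% and 2.14%, with members higher on 16 of 25 chromosomes (exact sign test, adjusted p = 0.279). For neighbours farther than 5 kb they were 11.4% and 6.92% (higher on 18 of 25, exact sign test, adjusted p = 0.0673).

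In this respect no difference was found between members and strong regions of 2 to 4 summits. The share with a strong nearest region was 11.6% against 12.2%, higher for members on 12 and lower on 13 chromosomes (exact sign test, two-sided, p = 1). By chromosome the shares of strong regions of 2 to 4 summits ran from 7.14% to 17.3%, which overlaps the range of members. The median score of the nearest region was 8.97 for members against 10.02, lower on 18 of 25 chromosomes (exact sign test, p = 0.0433), which did not pass after adjustment (0.0673). The nearest region had several summits for 28.4% of members against 32.6% (lower on 21 of 25 chromosomes, exact sign test, adjusted p = 0.00255). Of all chromosomal regions 28.0% had several summits, so the share of members lay near that of the whole list. Against weak single-summit regions (25.8%) members were higher on 17 of 25 chromosomes, which did not pass (exact sign test, adjusted p = 0.144).

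**Figure D4:**
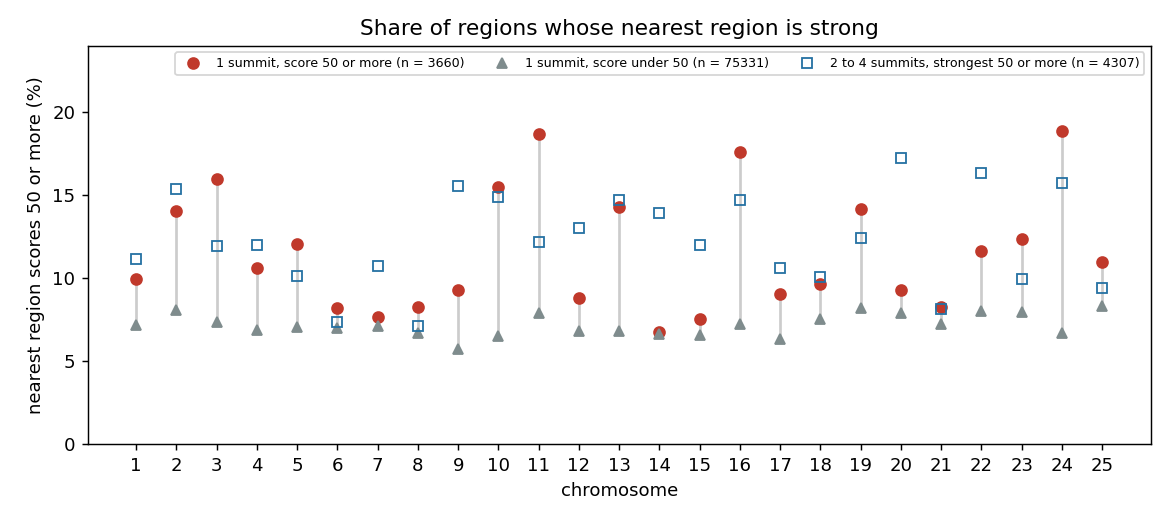
Percent of regions whose nearest region scores 50 or more, on each chromosome, for members (circles), single-summit regions under 50 (triangles) and strong regions of 2 to 4 summits (squares). Grey lines join members and weak single-summit regions; members are higher on all 25 chromosomes, whereas squares and circles overlap.

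The strong nearest regions of the 424 members were themselves of every kind. A single summit was found in 190 of them, 2 to 4 summits in 195 and 5 or more in 39. Among all 9073 strong chromosomal regions the numbers were 3660, 4307 and 1106, a similar mix. The difference between the mixes was not tested. In 228 of the 424 cases the nearest region scored higher than the member itself. There were 61 pairs of members that were each other's nearest region. The share with a strong nearest region was similar in the members scoring 50 to 75 (11.4% of 1942), 75 to 100 (11.1% of 777) and 100 to 200 (10.7% of 788), and was 20.9% of the 153 that scored 200 or more. Below 50, single-summit regions rose from 6.44% at scores under 2 to 9.77% at scores of 30 to 50, so the share climbed gradually, with no step at the minimum score.

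From 2 to 5 kb outwards, the excess of strong regions around members over weak single-summit regions became smaller, up to 200 to 500 kb. Closer in it was not largest. At 0 to 1 kb the means over 25 chromosomes were 0.282 per Mb around members and 0.516 around weak single-summit regions. At 1 to 2 kb they were 13.5 and 8.48 per Mb. At 2 to 5 kb from a member, strong regions occurred at 20.9 ± 7.16 per Mb (SD, n = 25 chromosomes), against 11.8 ± 1.81 around weak single-summit regions and 22.4 ± 7.61 around strong regions of 2 to 4 summits. At 20 to 50 kb the values were 11.1 ± 1.86, 8.75 ± 0.863 and 11.6 ± 1.82 per Mb. At 200 to 500 kb they were 7.43 ± 0.857, 7.31 ± 0.740 and 7.56 ± 1.04 per Mb. Counted over all distances up to 1 Mb, members had 15.4 other strong regions, against 14.7 for weak single-summit regions (higher on 21 of 25 chromosomes, exact sign test, adjusted p = 0.00255). Strong regions of 2 to 4 summits had 15.8, and members were lower on 17 of 25 chromosomes (exact sign test, adjusted p = 0.144). The count up to 1 Mb includes the nearer distances, so it does not show a difference on a wider scale. Regions of any score followed a milder course around members, from 157.7 ± 17.1 per Mb at 2 to 5 kb to 87.1 ± 4.34 at 200 to 500 kb, against 131.5 ± 6.73 and 87.4 ± 4.84 around weak single-summit regions.

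Counted within 50 kb, members had 1.25 other regions scoring 50 or more, against 0.903 for single-summit regions under 50 (higher on 23 of 25 chromosomes, exact sign test, two-sided, adjusted p = 9.07e-05). For strong regions of 2 to 4 summits the mean was 1.30, and members were higher on 11 and lower on 14 chromosomes (exact sign test, adjusted p = 0.743). Other regions of any score within 50 kb numbered 11.1 for members, 10.4 for weak single-summit regions (members higher on 22 of 25, adjusted p = 6.26e-04, exact sign test) and 11.9 for strong regions of 2 to 4 summits (members lower on 23 of 25, adjusted p = 9.07e-05, exact sign test). The first of these did not pass at a minimum score of 75 (exact sign test, adjusted p = 0.144) or 100 (adjusted p = 0.475). For each region with others within 50 kb, the median score of those others was taken. The median of these values was 9.36 for members and 8.39 for weak single-summit regions (higher on 25 of 25 chromosomes, exact sign test, adjusted p = 4.17e-07). For strong regions of 2 to 4 summits it was 9.51, with members higher on 9 and lower on 15 chromosomes (exact sign test, adjusted p = 0.359).

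**Figure D5:**
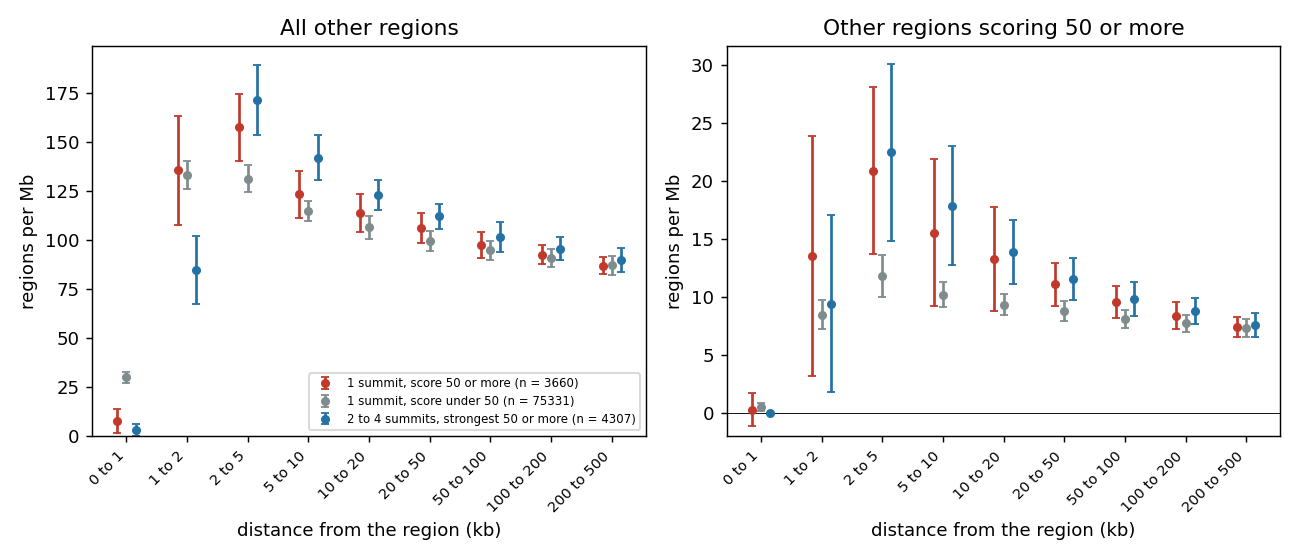
Other regions per Mb (left) and other regions scoring 50 or more per Mb (right) at increasing distance from members, single-summit regions under 50 and strong regions of 2 to 4 summits. Points are means over 25 chromosomes and bars are SDs; around members strong regions fall from 20.9 per Mb at 2 to 5 kb to 7.43 per Mb at 200 to 500 kb.

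Some members followed one another directly. Of the members, 3330 had no member as the adjacent region on either side, 140 runs held 2, 11 held 3, 3 held 4 and 1 held 5. The nearest pair of members was on chromosome 16, at positions 18233470 and 18234205, 735 bp apart with scores of 99.3 and 88.0. The next pairs were 1119 bp apart on chromosome 24, from 12410374 to 12411493 (457 and 857), and 1353 bp apart on chromosome 11, from 42365418 to 42366771 (76.4 and 55.7). Pairs 1389 and 1395 bp apart followed on chromosome 3 (40954097 to 40955486) and chromosome 1 (51220044 to 51221439).

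Within 50 kb, 2342 members (64.0%) had no other member, 987 had 1 and 211 had 2. The gap between adjacent members was 5 kb or less in 120 of 3635 cases (3.30%), against 165 of 4282 (3.85%) among strong regions of 2 to 4 summits. A member was directly followed by another member in 175 cases, 4.78% of members, where members are 3.34% of all chromosomal regions; this difference was not tested.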

How the data were processed

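A single list without a header was deposited for all libraries, with a 1 bp line per summit, a region name and a −log10 value, whose smallest, 1.302, lies just above the −log10 of 0.05. A threshold of 0.05 on q-values or on uncorrected p-values would give this, and MACS2 uses q-values by default, so the score is taken as a q-value but may be a p-value. Per the submitters' processing notes, BWA 0.1.17, MACS2 2.2.6, deepTools 3.5.1 and GRCz11 were used, without roles or settings. Not given in the sources used here are the pooling of libraries, the control and the treatment of repeated sequence.

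Lines of 1 region number form a region, placed at its strongest summit. Positions are 1-based. The 3 classes were compared over 14 measures and 2 contrasts by two-sided exact sign tests on values per chromosome, ties left out, with Benjamini-Hochberg adjustment over 28 tests. For an alternative setting, its p-value took the place of the main one among the 28 before adjustment. Alternative settings were therefore not corrected for one another. Chromosomes are not replicates, and p-values measure only how evenly a difference runs over the genome. The sign test code was tried on shuffled scores, only for the distance and score of the nearest region against weak single-summit regions. Members, classes and measures were chosen with earlier results of these data known, and 11 of the 14 measures were added after the list was opened. The 3 planned measures were the distance to the nearest other region, the score of that region and the share in the outer 500 kb. The regions named are the 10 highest, the 5 on either side of the minimum score, the 5 most distant and the 5 nearest pairs of members; the stretch on chromosome 3 was chosen after its values were seen. The planned motif and promoter shares need GRCz11 sequence or annotation and were not run. Values were computed with scipy 1.17.1, pandas 2.3.3 and numpy 2.4.6 in Python 3.11.15 and plotted with matplotlib 3.10.9.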

Additional observations from a re-analysis of the deposited data

Results flagged for a closer look

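The rule for members leaves out unplaced scaffolds, which also carry such regions. They held 50 strong single-summit regions on 48 scaffolds, 3.47% of their 1442 regions, with a median score of 72.0 and a highest score of 1155. The 2 regions of the mitochondrial genome both had several summits, so none qualified there.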

How the results depend on the processing

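Values are ratios of members to the comparison class. Against strong regions of 2 to 4 summits, the distance ratio of 0.922 turned to 1.21 between outer summits, and lost its call at minimum scores of 75 (0.925) and 100 (0.918), with the nearest summit of any region (0.932) and with neighbours of 5 or more (0.989). On the same change to outer summits, the ratios of the shares within 1 kb and 2 kb turned from 2.49 and 1.57 to 0.426 and 0.746. This measure leaves out the stretch between strongest and outer summit in both the region and its neighbour. Against weak single-summit regions, the distance ratio of 0.936 passed at a minimum score of 30 (0.925), by outer summits or the nearest summit (0.925 each) and with neighbours of 5 or more (0.867). The neighbour score ratio lost its call at a minimum of 100 (1.15) and beyond 5 kb (1.20), as did the share of strong nearest regions (2.49 and 1.65). The share with no region within 20 kb lost its call at a minimum of 75 and turned to 1.01 at 100. The ratio at chromosome ends against strong regions of 2 to 4 summits lost its call at minimums of 75 (0.879) and 100 (0.871) and in the outer 1 Mb (0.854), and was 0.448 in the outer 250 kb. Chromosome 4 had 0.831 of the mean member density of the others, 0.692 at a minimum of 100 and 1.13 as a share of all regions. Minimums of 30, 75 and 100 gave 7897, 1718 and 941 members by construction. Higher minimums leave fewer members per chromosome; the cause of the other changes was not tested. No paired analysis was possible because the list holds no value per library, and no library could be left out. Read depth is unknown.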

Other observations

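The longest run of adjacent members, with 5, lay beside 1 of the 3 runs of 4 on chromosome 3; the other runs of 4 were on chromosomes 5 and 11. From position 62217533 to 62337763, a stretch of 120 kb, 10 of 12 regions were strong single-summit regions, with scores from 124 to 326 and a median of 225. The other 2 were 1 strong region of 2 to 4 summits and 1 weak single-summit region. This stretch was chosen after its values were seen.

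Member scores were often shared. The 3660 members had 1907 distinct scores, 2327 members (63.6%) shared theirs with another member, and the most frequent value, 50.13, occurred in 51 members, just above the minimum of 50.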
